A study of Mus musculus with 9 samples.

Results

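The genes described here are 37 lysosomal genes of the mouse. They encode soluble hydrolases and their helper proteins, proteins of the lysosomal membrane, parts of the lysosomal proton pump and the transcription factors Tfeb and Tfe3. The cathepsins, the best known lysosomal proteases, were not among the 37 and are given only as a related list. A probe belonged to a gene when the accession in the scanner output was a RefSeq accession of that gene. By this rule 36 of the 37 genes had a probe, 52 probes in all, and Arsb had none matched by its accession. All 52 probes passed the filter on dim probes, so that 36 of the 15808 genes tested were lysosomal, and the brightest probe of each of the 36 was well above background on all 9 arrays.

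The arrays measured total RNA of FDCPmix cells, a mouse multipotent hematopoietic cell line that self-renews in IL-3 and can form several kinds of blood cell. Cells kept in self-renewal conditions received a Lentilox lentivirus with a short hairpin RNA (shRNA) against Gata2 (Gata2 KD), one with an shRNA against Pu.1 (Pu.1 KD), or the empty virus (EV). Viable GFP+ cells were sorted 5 days later, so every group, EV included, had been infected and carried GFP. Each group had 3 single-color Agilent arrays. The samples were already in triplicate when the virus was added, according to the study's methods. Whether the triplicates came from separate cultures is not stated, and the p-values measure the spread between these samples. The study used the knockdowns to ask how GATA2 and PU.1 act on each other and on myeloid genes. Gata2 encodes a transcription factor of progenitors and Pu.1, listed as Spi1, one of myeloid cells.

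Levels are log2 intensities from which the 75th percentile of each array was subtracted. They can be compared between arrays for 1 probe but not between probes, and values on the 3 arrays of a group are given in the order of replicates 1, 2 and 3. A change is a difference of group means on the log2 scale with its standard error (SE). A gene was called when limma's p-value, adjusted by Benjamini-Hochberg over all 36585 tested probes, was under 0.05. In bulk RNA a change in the level per cell cannot be told apart from a change in the proportion of cells that express the gene. The shRNA targets, the slides and the cell type markers were looked at before the lysosomal genes. Gata2 fell by 1.61 in Gata2 KD (SE 0.23, adjusted p 0.00414) and Spi1 fell by 1.73 in Pu.1 KD (SE 0.16, adjusted p 0.00178), while in Gata2 KD Spi1 changed by 1.39. Between 80.4% and 89.6% of spots read well above background on each array, each of the 3 slides held 1 array of every group, and EV replicate 3 correlated least with the other arrays (mean correlation 0.960). All 7 multipotent progenitor markers read well above background on all arrays, among them Kit, Cd34 and Myb.

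Lysosomes are the acid compartments in which cells break down lipids, glycans and proteins. Their soluble enzymes each remove a particular group from a substrate and need an acid lumen, which the vacuolar proton pump provides, and the products leave through transporters and cholesterol carriers in the limiting membrane. Macrophages and neutrophils are rich in lysosomes or in granules related to them. TFEB and TFE3, of the MiT/TFE family, are known to bind short E-box sequences near the starts of many lysosomal genes and to raise their transcription.

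Because TFEB, GATA2 and PU.1 each bind a known short sequence, the RefSeq windows of 250 bases before to 50 bases after annotated starts (build GRCm38.p6) were searched for 1 form of each, on both strands. The searched letters were TCACGTG for the E-box of TFEB, AGATAAG for GATA factors and GGAAGTG for PU.1. A copy of the E-box that reads almost alike on both strands was counted once per gene. Windows were given for 35 of the 37 genes, and none for Asah1 or Npc1. The E-box letters stood in the windows of 11 of these 35 genes (31.4%), Arsa, Atp6v1a, Cln3, Gaa, Gla, Glb1, Lamp1, Lgmn, Mcoln1, Naglu and Sgsh, against 4.29% of all 27025 genes with a window. The GATA letters stood in 1 (Npc2, 2.86%) against 3.50% of all genes, and the PU.1 letters in 7 (20.0%), Acp2, Atp6v1a, Gla, Laptm5, Lipa, Tfe3 and Tfeb, against 12.5%. A match describes the sequence and does not show that a factor binds there. Stretches before the start are printed for the called genes with a match, and for Lamp1, the standard lysosomal marker. They are written 5′ to 3′ in the direction of the gene with E-box and PU.1 letters, on either strand, in capitals.
Sgsh, chr11:119355521-119355551, minus strand, E-box: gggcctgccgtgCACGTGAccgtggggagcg
Cln3, chr7:126583340-126583369, minus strand, E-box: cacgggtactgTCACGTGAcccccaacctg
Glb1, chr9:114401017-114401047, plus strand, E-box: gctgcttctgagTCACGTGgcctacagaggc
Lamp1, chr8:13159087-13159160, plus strand, 4 E-box matches: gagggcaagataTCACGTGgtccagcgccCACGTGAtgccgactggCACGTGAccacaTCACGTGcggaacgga
Gla, chrX:134601136-134601245, minus strand, E-box and PU.1: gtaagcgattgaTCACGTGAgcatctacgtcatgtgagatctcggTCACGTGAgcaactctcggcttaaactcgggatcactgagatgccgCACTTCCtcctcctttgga
Lipa, chr19:34527507-34527537, minus strand, PU.1: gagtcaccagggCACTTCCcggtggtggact
Laptm5, chr4:130913241-130913271, plus strand, PU.1: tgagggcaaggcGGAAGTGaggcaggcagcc
The Cln3 stretch lies before the second of its 2 annotated starts, and its window held a further E-box match.

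In Gata2 KD 5 of the 36 lysosomal genes rose against EV, which was 13.9% of them, against 4.21% of all genes tested that were called higher. They were Psap, Lipa, Sgsh, Neu1 and Cln3, which act on sphingolipids, neutral lipids, heparan sulfate and sialylated glycans or, for Cln3, sit in the membrane. Glb1 and Smpd1 fell, 2 of 36 (5.56%) against 2.95% of all genes. The means of 28 of the 36 genes (77.8%) were higher in Gata2 KD than in EV, against 36.8% of all genes, and the median change was 0.24 against -0.09 over all genes. On the 3 Gata2 KD arrays 16 genes lay wholly above the EV arrays and 3 wholly below, against 9.5% and 13.6% of all genes.

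In Pu.1 KD 0 of the 36 genes were called higher against EV by limma, against 1.45% of all genes. Man2b1 and Lipa fell, 2 of 36 (5.56%) against 2.16% of all genes. At an unadjusted p under 0.05 there were 7 genes, Man2b1, Lipa, Neu1, Gusb, Gla, Manba and Laptm5, each with a lower mean in Pu.1 KD, which was 19.4% of the 36 against 8.38% of all genes with such a p and a lower mean. The median change was -0.02 against -0.04 over all genes, 18 of 36 means were higher against 42.9% of all genes, and 2 genes lay wholly above the EV arrays and 8 wholly below, against 8.61% and 11.9% of all genes. The comparisons of Gata2 KD and Pu.1 KD against EV share the EV arrays, so their changes are given side by side for each gene, and the direct comparison of the knockdowns is the test of a difference between them.

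Compared directly, 11 of the 36 genes were higher in Gata2 KD than in Pu.1 KD (30.6%), against 6.77% of all genes, and 2 were lower (5.56%), against 5.6% of all genes. The 11 were Psap, Lipa, Gm2a, Neu1, Man2b1, Manba, Gla, Sgsh, Cln3, Laptm5 and Npc1, and the lower genes were Glb1 and Smpd1. This comparison uses the same knockdown arrays as those against EV, and 5 genes were called only here. The means of 27 of the 36 genes were higher in Gata2 KD, against 44.9% of all genes. On all 3 slides each of the 13 genes differed in 1 direction. The groups did not overlap for 19 genes higher and 4 lower in Gata2 KD, against 14.3% and 15.8% of all genes.

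Deviations from the group means on the same slide correlated above 0.1 in 8 of 9 pairs of arrays (-0.04 to 0.72). With slide as a block all of the above calls of lysosomal genes were kept and 9 were added. In Gata2 KD against EV 7 genes were then higher and 2 lower, against 5.35% and 4.88% of all genes, with Gm2a and Ids added. In Pu.1 KD against EV 0 were higher and 5 lower, against 2.69% and 3.86%, with Neu1, Gusb and Gla added. Between the knockdowns 14 were higher and 3 lower in Gata2 KD, against 8.9% and 8.68%, with Npc2, Asah1, Atp6v1a and Naglu added. Statements on calls below refer to the fit without the block unless the block is named.

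**Figure D1:**
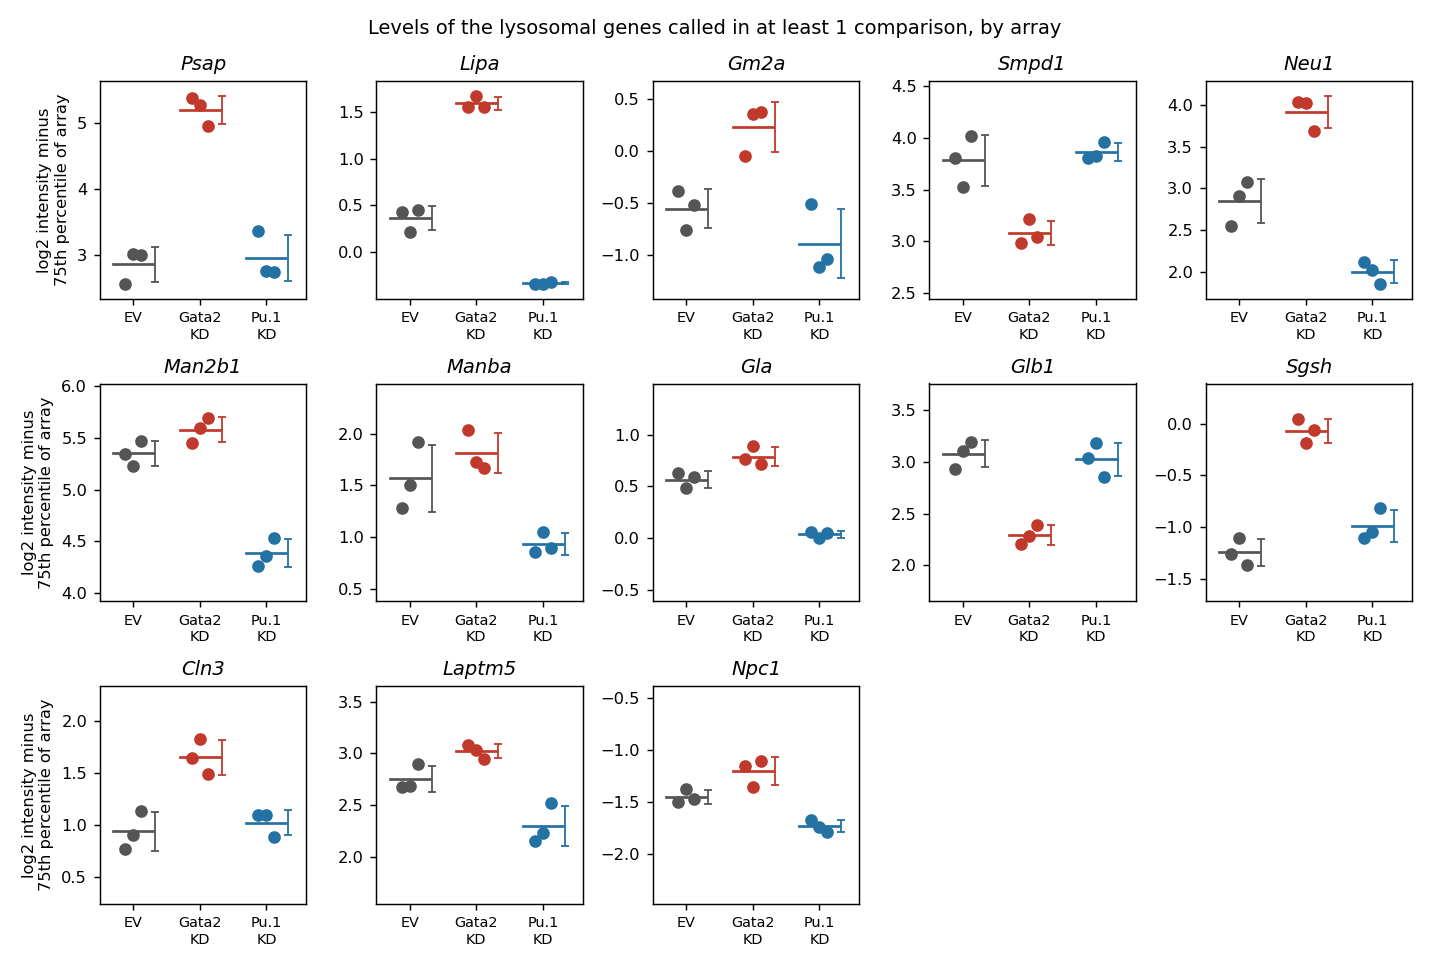
Each panel plots the level of 1 gene on the 9 arrays (log2 intensity minus the 75th percentile of the array), with points for arrays, horizontal lines for group means and bars for the SD of 3 arrays. The y axes differ between genes. Psap, Sgsh and Cln3 were high on the Gata2 KD arrays alone, Glb1 and Smpd1 were low there alone, and Lipa and Neu1 formed 3 separate levels with Pu.1 KD lowest.

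Lipid-degrading enzymes and their helpers held the most extreme rise. Psap encodes prosaposin, the precursor of the saposins, small proteins that present sphingolipids to their hydrolases. Psap read 2.56, 3.01 and 2.998 on the EV arrays, 5.38, 5.27 and 4.96 on the Gata2 KD arrays and 3.36, 2.76 and 2.74 on the Pu.1 KD arrays. All 3 Gata2 KD arrays lay more than 1 log2 unit above every other array, whereas the EV and Pu.1 KD arrays overlapped. The change in Gata2 KD was 2.35 (SE 0.22, 5.09-fold, adjusted p 0.000498), that in Pu.1 KD was 0.10 (adjusted p 0.996), and Gata2 KD exceeded Pu.1 KD by 2.25 (adjusted p 0.000357). A second Psap probe gave 2.44 in Gata2 KD (adjusted p 0.000178) and 0.19 in Pu.1 KD.

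Lipa encodes lysosomal acid lipase, which frees cholesterol and fatty acids from cholesteryl esters and triglycerides. Its level was 0.43, 0.21 and 0.45 in EV, 1.55, 1.67 and 1.55 in Gata2 KD, and -0.34, -0.33 and -0.31 in Pu.1 KD. The groups did not overlap, and Lipa was called in both comparisons against EV, in opposite directions. On the brightest probes it was the single lysosomal gene to be so without the slide block. It rose by 1.23 in Gata2 KD (SE 0.12, 2.34-fold, adjusted p 0.00071) and fell by 0.69 in Pu.1 KD (1.61-fold, adjusted p 0.0266). Between the knockdowns it differed by 1.92 (3.78-fold, adjusted p 3.22e-05). The fall in Pu.1 KD was no longer called when any 1 array other than Gata2 KD replicate 1 was left out (adjusted p up to 0.119), while the other calls of Lipa were kept. The Lipa stretch above holds the PU.1 letters.

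Gm2a encodes the GM2 activator, which carries ganglioside GM2 to beta-hexosaminidase. Gm2a read -0.39, -0.76 and -0.52 in EV, -0.05, 0.36 and 0.38 in Gata2 KD, and -0.52, -1.12 and -1.05 in Pu.1 KD. The Gata2 KD arrays were all above the rest, and EV and Pu.1 KD overlapped. The change in Gata2 KD, 0.79, missed the threshold (adjusted p 0.0862, or 0.0248 with slide as a block) and that in Pu.1 KD was -0.34 (adjusted p 0.675), but the knockdowns differed by 1.12 (SE 0.21, adjusted p 0.011). Without Gata2 KD replicate 2 the adjusted p of this difference was 0.0557, and the call was also lost without Pu.1 KD replicate 3. The dimmer Gm2a probe was called in every comparison, with 1.38 in Gata2 KD, -1.29 in Pu.1 KD and 2.67 between them (adjusted p 0.000975, 0.0046 and 1.3e-05).

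Smpd1 moved the other way. It encodes acid sphingomyelinase, which splits sphingomyelin into ceramide and phosphocholine. Its level was 3.81, 3.52 and 4.02 in EV, 2.99, 3.22 and 3.04 in Gata2 KD, and 3.80, 3.82 and 3.96 in Pu.1 KD. The 3 Gata2 KD arrays were the lowest of the 9. Smpd1 fell by 0.70 against EV (SE 0.16, adjusted p 0.0431) and by 0.78 against Pu.1 KD (adjusted p 0.017), and its change in Pu.1 KD was 0.08. The call against EV was lost without any 1 array other than EV replicate 2 (adjusted p up to 0.148), and that against Pu.1 KD without Gata2 KD replicates 1 or 3 or any 1 Pu.1 KD array (up to 0.0707). The other lipid genes were called in no comparison without the slide block. With it Asah1 and Npc2 were higher in Gata2 KD relative to Pu.1 KD, by 0.55 and 0.67 (adjusted p 0.0242 and 0.00811). Asah1, which encodes acid ceramidase, changed by 0.38 and -0.17 in Gata2 KD and Pu.1 KD, Npc2, a cholesterol carrier, by 0.46 and -0.21, and Arsa, which desulfates sulfatide, by 0.10 and -0.25.

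Among the glycosidases Neu1 changed most in Gata2 KD against EV and between the knockdowns, and Man2b1 in Pu.1 KD against EV. Neu1 encodes sialidase, which removes terminal sialic acid. Neu1 read 2.55, 2.91 and 3.08 in EV, 4.03, 4.03 and 3.69 in Gata2 KD, and 2.12, 2.02 and 1.85 in Pu.1 KD. As for Lipa, the 3 groups did not overlap. Neu1 rose by 1.07 in Gata2 KD (SE 0.18, 2.10-fold, adjusted p 0.0108), and its change of -0.85 in Pu.1 KD just missed the threshold (adjusted p 0.0512) and was called with slide as a block (adjusted p 0.00897). The knockdowns differed by 1.92 (3.79-fold, adjusted p 0.000264). A second, dimmer Neu1 probe was called in all 3 comparisons, with changes of 1.13, -0.78 and 1.91. Without Gata2 KD replicate 2 the rise of Neu1 against EV had an adjusted p of 0.0608.

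Glb1 encodes beta-galactosidase, which works in a complex with sialidase and cathepsin A. Its level was 2.93, 3.10 and 3.19 in EV, 2.21, 2.28 and 2.39 in Gata2 KD, and 3.04, 3.18 and 2.86 in Pu.1 KD. The Gata2 KD arrays were the lowest, and EV and Pu.1 KD overlapped. Glb1 fell by 0.78 against EV (SE 0.14, 1.72-fold, adjusted p 0.0153) and by 0.73 against Pu.1 KD (adjusted p 0.0133), with a change of -0.05 in Pu.1 KD. The genes of this complex did not move together, as Neu1 rose and Glb1 fell in Gata2 KD. Ctsa, the gene of cathepsin A, which was named after its values were seen, rose by 0.61 (adjusted p 0.0435). The call of Glb1 against EV was lost without EV replicate 2 or Gata2 KD replicates 1 or 2 (adjusted p up to 0.077), and that against Pu.1 KD without Gata2 KD replicates 1 or 2 or Pu.1 KD replicates 1 or 2 (up to 0.0614). The other Glb1 probe gave -0.41 in Gata2 KD and was not called (adjusted p 0.748).

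The mannosidases trim mannose from the glycans of glycoproteins. Man2b1, the gene of lysosomal alpha-mannosidase, read 5.34, 5.23 and 5.47 in EV, 5.45, 5.59 and 5.69 in Gata2 KD, and 4.27, 4.35 and 4.54 in Pu.1 KD. Here it was the Pu.1 KD arrays that stood apart, below the other 6, while EV and Gata2 KD overlapped. Man2b1 fell by 0.96 in Pu.1 KD (SE 0.14, 1.95-fold, adjusted p 0.0117), changed by 0.23 in Gata2 KD (adjusted p 0.590) and differed by 1.19 between the knockdowns (adjusted p 0.000915). The fall was no longer called without Pu.1 KD replicate 1 (adjusted p 0.0646) or Pu.1 KD replicate 2. Manba, the gene of beta-mannosidase, read 1.28, 1.51 and 1.92 in EV, 2.03, 1.73 and 1.67 in Gata2 KD, and 0.86, 1.05 and 0.89 in Pu.1 KD. It too was lowest in Pu.1 KD, with a change of -0.63 that was not called (adjusted p 0.165), and it was 0.87 higher in Gata2 KD than in Pu.1 KD (adjusted p 0.0228). That difference was lost without any 1 of the 6 knockdown arrays (adjusted p up to 0.089), and the second Manba probe gave a called difference of 0.71.

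Gla encodes alpha-galactosidase A, which removes galactose from globotriaosylceramide, and its printed stretch holds both E-box and PU.1 letters. Gla read 0.63, 0.48 and 0.59 in EV, 0.76, 0.89 and 0.72 in Gata2 KD, and 0.07, 0.00 and 0.06 in Pu.1 KD. The groups did not overlap, in the order Pu.1 KD, EV and Gata2 KD. Neither change against EV was called, at 0.22 in Gata2 KD (adjusted p 0.503) and -0.53 in Pu.1 KD (adjusted p 0.0661, or 0.0309 with slide as a block), but the knockdowns differed by 0.75 (SE 0.12, adjusted p 0.00495). A much dimmer Gla probe gave a difference of 0.29 and was not called. Of the remaining glycosidases Hexa, whose product is a chain of beta-hexosaminidase A, changed by 0.33 and -0.13 in Gata2 KD and Pu.1 KD, and Gaa, the gene of the glycogen-degrading acid alpha-glucosidase, by 0.22 in each. Neither was called.

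Of the 5 measured enzymes that degrade glycosaminoglycans, Sgsh was the single gene called without the slide block. It encodes the sulfamidase of heparan sulfate breakdown. Sgsh read -1.26, -1.10 and -1.36 in EV, 0.04, -0.19 and -0.06 in Gata2 KD, and -1.11, -1.05 and -0.81 in Pu.1 KD. All Gata2 KD arrays were above all others. The rise was 1.17 against EV (SE 0.14, 2.25-fold, adjusted p 0.0021) and 0.92 against Pu.1 KD (adjusted p 0.0045), with a change of 0.25 in Pu.1 KD. A second, dimmer Sgsh probe for the same accession changed by -0.11 in Gata2 KD (adjusted p 0.959), so the probes of Sgsh disagreed. With both probes averaged the change of Sgsh against EV was 0.53 and still called (adjusted p 0.0339).

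The neighbouring enzymes of this group went different ways. Naglu, whose product also acts on heparan sulfate, changed by -0.29 in Gata2 KD and 0.26 in Pu.1 KD and differed between the knockdowns by -0.56, Gata2 KD minus Pu.1 KD, which just missed the threshold (adjusted p 0.054, or 0.0446 with slide as a block). Gusb, the gene of beta-glucuronidase, changed by -0.35 in Gata2 KD and -0.65 in Pu.1 KD (adjusted p 0.297 and 0.0582), with both sets of knockdown arrays wholly below EV, and its change in Pu.1 KD was called with slide as a block (adjusted p 0.0254). Ids, the gene of iduronate sulfatase, changed by 0.56 and 0.16, of which the first was called with slide as a block (adjusted p 0.0393, against 0.171 without). The much dimmer Ids probes changed by 0.11, 0.14 and 0.25 in Gata2 KD. On these the groups overlapped, and they were not called with or without the block. Idua, the gene of iduronidase, changed by 0.15 and 0.07 and was not called.

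Of 8 genes for membrane proteins only Cln3 was called against EV. CLN3 is a membrane protein of the lysosome whose loss causes juvenile Batten disease. Cln3 read 0.77, 0.91 and 1.14 in EV, 1.65, 1.83 and 1.49 in Gata2 KD, and 1.09, 1.095 and 0.88 in Pu.1 KD. The Gata2 KD arrays were the highest and the other groups overlapped. Cln3 rose by 0.72 (SE 0.16, 1.64-fold, adjusted p 0.0366) against EV and was 0.63 higher than in Pu.1 KD (adjusted p 0.0396). Both calls were near the threshold. That against EV was lost without any 1 array other than EV replicate 3 (adjusted p up to 0.170), and that against Pu.1 KD without any 1 array other than EV replicates 1 and 3 (up to 0.168).

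Laptm5 and Npc1 were called only between the knockdowns. Laptm5 encodes a membrane protein of lysosomes found mainly in blood cells, and the stretch before its start holds the PU.1 letters. Laptm5 read 2.68, 2.69 and 2.90 in EV, 3.09, 3.04 and 2.95 in Gata2 KD, and 2.15, 2.23 and 2.52 in Pu.1 KD. Its groups did not overlap, with changes of 0.27 in Gata2 KD and -0.45 in Pu.1 KD and a difference of 0.72 between them (SE 0.15, adjusted p 0.0164). Npc1, whose product exports cholesterol from the lysosome, read -1.50, -1.38 and -1.47 in EV, -1.15, -1.36 and -1.10 in Gata2 KD, and -1.67, -1.74 and -1.79 in Pu.1 KD. The groups were again separate, and the difference between the knockdowns was 0.53 (SE 0.13, adjusted p 0.0347). The difference of Laptm5 was lost without Gata2 KD replicates 1 or 2 or Pu.1 KD replicates 1 or 2 (adjusted p up to 0.0738), and that of Npc1 without any 1 array other than EV replicate 3 (up to 0.134). A second, slightly dimmer Laptm5 probe changed by 0.42 in Gata2 KD and -0.40 in Pu.1 KD, and both knockdowns overlapped EV. Its difference of 0.83 between the knockdowns was not called (adjusted p 0.071).

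The general membrane markers of lysosomes were not called in any comparison. Lamp1 changed by 0.43 in Gata2 KD and 0.17 in Pu.1 KD (adjusted p 0.415 and 0.940), and its printed stretch holds 4 E-box matches. Lamp2 changed by 0.36 and 0.24, Mcoln1, which encodes a calcium channel of the lysosomal membrane, by 0.37 and 0.21, and Laptm4a by 0.01 and 0.33. A second Lamp2 probe lay wholly above EV in both knockdowns, with changes of 0.50 (adjusted p 0.242) and 0.68 (adjusted p 0.128). Cd63, a tetraspanin of late endosomes and secretory granules, changed by -0.15 and 0.28. On the brightest probes of these 5 genes, the 95% intervals for Gata2 KD against EV had bounds no lower than -0.67 and no higher than 0.91.

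On their brightest probes the protease, thioesterase and phosphatase genes changed little. They are Tpp1 and Ppt1, which are lost in neuronal ceroid lipofuscinoses, Lgmn, the gene of legumain, and the acid phosphatase genes Acp2 and Acp5. In each of the 3 comparisons 0 of the 5 genes were called by limma on these probes, and 0 had an unadjusted p under 0.05, against 17.9%, 14.4% and 22.5% of all genes for Gata2 KD, for Pu.1 KD and between the knockdowns. The groups overlapped for all 5 on the brightest probe, where their changes in Gata2 KD ranged from -0.14 to 0.13 and in Pu.1 KD from -0.25 to 0.23. Acp5, also known as the osteoclast marker tartrate-resistant acid phosphatase, changed by 0.11 in Gata2 KD and 0.23 in Pu.1 KD. The dimmer probes of Acp2 and Tpp1 were not called either. The second Acp2 probe lay wholly above EV in both knockdowns, with changes of 0.47 (adjusted p 0.132) and 0.35 (adjusted p 0.360), and the second Tpp1 probe lay wholly lower in Gata2 KD than on the Pu.1 KD arrays, with a difference of -0.43 (adjusted p 0.178).

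For the proton pump, Atp6v1a, a subunit of its catalytic head, changed by 0.14 in Gata2 KD and -0.38 in Pu.1 KD. Its difference of 0.53 between the knockdowns was called with slide as a block (adjusted p 0.0360, against 0.151 without). Atp6ap1, an accessory subunit, had the widest error of the 36 genes (SE 0.45). It read 0.82, 1.13 and -0.68 in EV, where replicate 3 was far below the others, and 0.81, 1.15 and 1.72 in Gata2 KD, a change of 0.80 (adjusted p 0.532). Tfe3 read -0.87, -0.53 and -1.09 in EV and -0.36, -0.32 and -0.29 in Gata2 KD, without overlap, and its change of 0.51 was not called (adjusted p 0.220). Tfeb changed by 0.18 in Gata2 KD and -0.12 in Pu.1 KD, and was not called. Of the 11 genes with E-box letters in their window, 3 were called in Gata2 KD against EV, with Sgsh and Cln3 higher and Glb1 lower (27.3%, against 19.4% of the 36 genes and 7.15% of all genes), and 0 in Pu.1 KD against EV, where 3.61% of all genes were called. Between the knockdowns 4 of the 11 were called (36.4%), against 36.1% of the 36 genes. Of the 7 genes with PU.1 letters, 1 was called in each knockdown against EV (14.3%). The shares called in Gata2 KD and Pu.1 KD were 19.4% and 5.56% of the 36, and 7.15% and 3.61% of all genes. Between the knockdowns 3 of these 7 were called (42.9%, against 36.1% of the 36). In that comparison 6.77% of all genes were called higher and 5.6% lower.

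**Figure D2:**
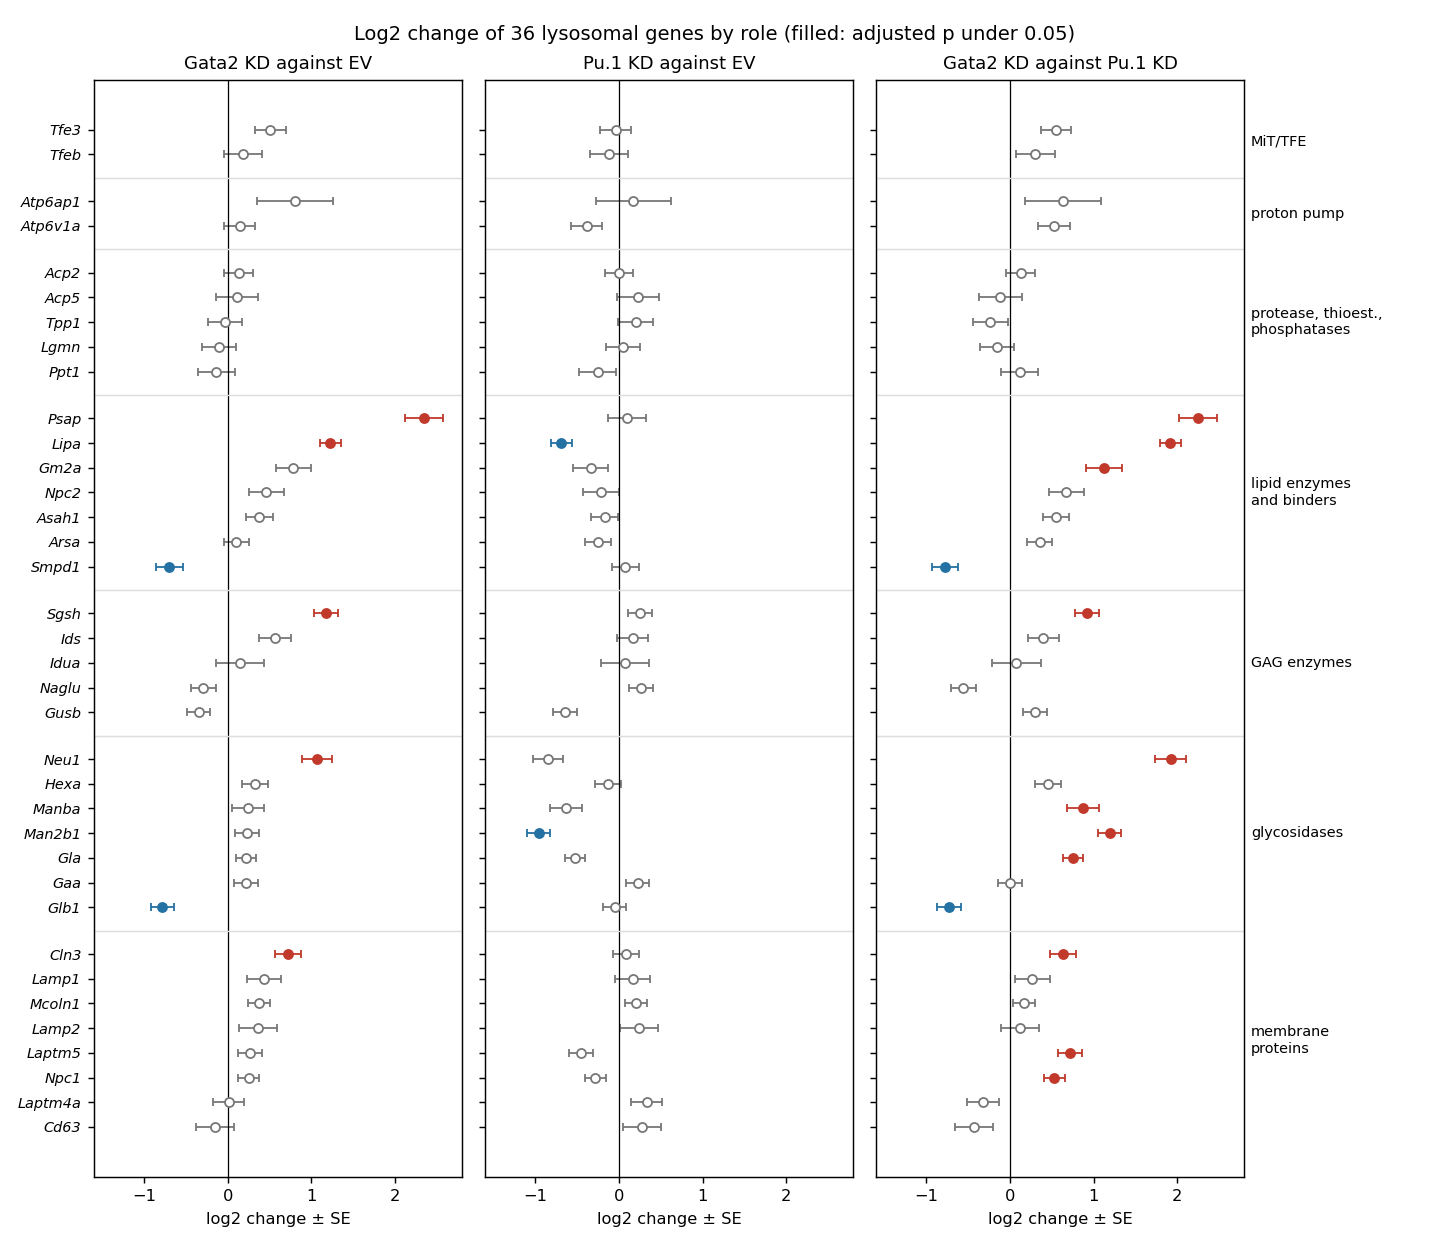
The log2 change with its SE is plotted for the 36 genes, grouped by role, in 3 comparisons, with filled points for an adjusted p under 0.05 (red higher, blue lower). Filled points lie among lipid genes, glycosidases, glycosaminoglycan (GAG) enzymes and membrane proteins, while the brightest probes of the protease, thioesterase and phosphatase group have no filled point.

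Across roles, 13 of the 36 genes (36.1%) were called in at least 1 comparison, against 13.8% of all genes, and 23 in none. Of the 13, Psap, Sgsh, Cln3, Glb1 and Smpd1 differed in Gata2 KD from both other groups, and for these 5 the changes in Pu.1 KD against EV lay between -0.05 and 0.25. On their brightest probes the arrays of Gm2a stood apart in Gata2 KD and those of Man2b1 and Manba in Pu.1 KD. On these probes Lipa, Neu1, Gla, Laptm5 and Npc1 had 3 separate groups with EV between the knockdowns. The dimmer probes of Gla and Laptm5 overlapped EV in both knockdowns. The share of all genes with 3 groups in this order was not computed, so the pattern has no background to be set against. The 23 genes called in none changed by -0.35 to 0.80 in Gata2 KD and by -0.65 to 0.33 in Pu.1 KD.

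Several probes measured 14 of the 36 genes, which gave 16 further probes. In Gata2 KD against EV the called genes had 4 further probes, of which 3 changed in the same direction, 2 were called in it (Psap and Neu1) and 0 were called in the opposite one. Between the knockdowns they had 8, all in the same direction and 4 called. The exception in Gata2 KD was Sgsh. In Pu.1 KD against EV 2 further probes were called although the brightest probe of their gene was not. These were the dimmer probes of Gm2a and Neu1, and both were also called in Gata2 KD against EV, in the opposite direction.

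**Figure D3:**
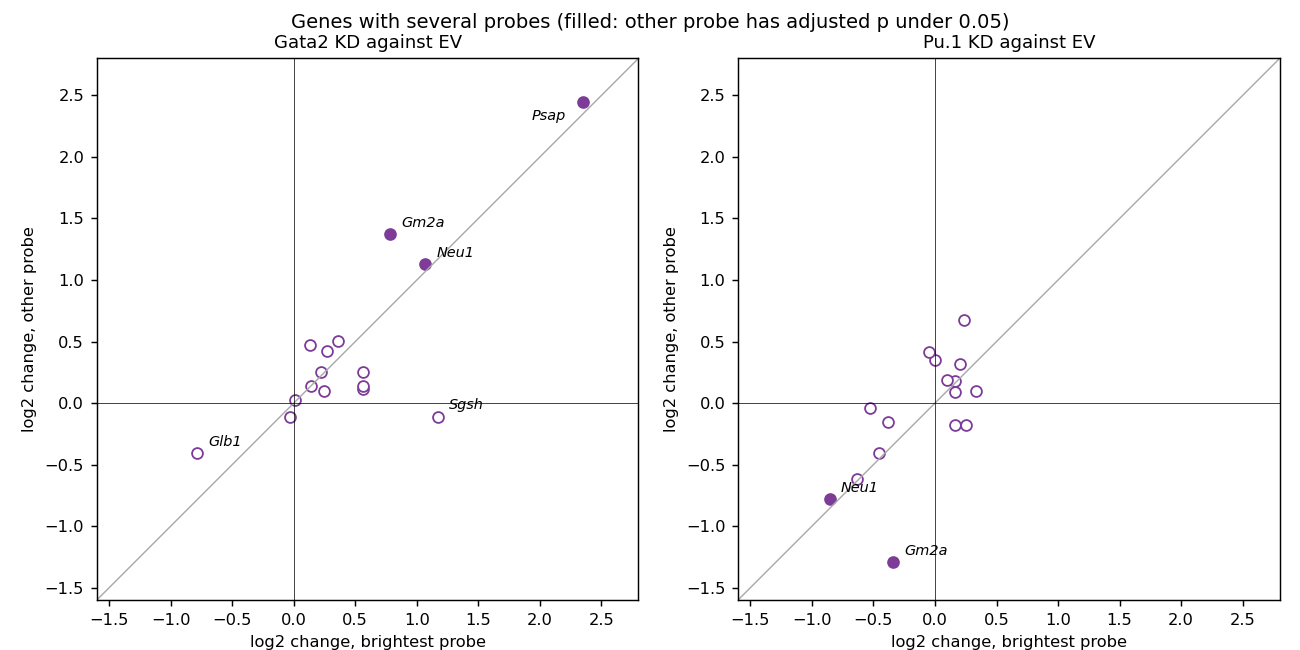
For the 14 genes with several probes, the log2 change of each other probe is plotted against that of the brightest probe in Gata2 KD (left) and Pu.1 KD (right), both against EV, with a line of equality and filled points where the other probe had an adjusted p under 0.05. Psap, Neu1 and Gm2a lie on the side of their brightest probe in Gata2 KD, and Sgsh lies near 0 on the other probe.

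Genes of the same organelle outside the 36 were taken from lists. Of all genes tested, 4.21% were called higher and 2.95% lower in Gata2 KD against EV, and 1.45% and 2.16% in Pu.1 KD. At an unadjusted p under 0.05 the shares were 17.9% and 14.4%. A single call in a list of this size does not stand out from these shares. Of 14 cathepsin genes 5 rose in Gata2 KD, led by Ctss (6.13), Ctsh (4.08) and Ctsz (1.72), and 0 fell, while in Pu.1 KD Ctsl alone was called, with a change of -1.43. The cathepsin list had a median change of 0.37 in Gata2 KD and -0.28 in Pu.1 KD. Of 18 other hydrolases Scpep1, which encodes a serine carboxypeptidase (1.66), and Pla2g15, which encodes a lysosomal phospholipase (0.76), rose in Gata2 KD and 0 fell. In Pu.1 KD 1 of the 18 fell and 1 rose, the latter being Arsg, a sulfatase gene, by 1.07.

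Of 21 other membrane proteins and transporters 4 rose in Gata2 KD and 1 fell. Slc11a1, the metal transporter NRAMP of phagocytes, rose by 2.53, Slc15a3, a peptide and histidine transporter, by 2.22 and Scarb2, a lysosomal membrane protein, by 1.01. Abca2, outside the naming rule, fell by 0.78. In Pu.1 KD 0 of the 21 were called by limma and 4 had an unadjusted p under 0.05. Of 16 V-ATPase subunits Tcirg1, known from osteoclasts and other cells that pump acid, rose by 2.25 and Atp6v0c by 0.95 in Gata2 KD, and the median of the 16 was 0.33. In Pu.1 KD 0 were called and 2 had an unadjusted p under 0.05.

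Among 16 genes for sorting to the lysosome Gnptab, whose enzyme makes the mannose 6-phosphate tag of lysosomal hydrolases, fell in both knockdowns, by 0.84 and 0.85, and Vps11 rose by 0.65 in Gata2 KD. Of 14 relatives and regulators of TFEB, Tfec alone was called against EV. It rose by 2.90 in Gata2 KD (adjusted p 2.76e-05) with a change of -0.26 in Pu.1 KD. Mitf changed by 0.83 and -0.56 and was called only between the knockdowns (1.39, adjusted p 0.00505). Of 13 autophagy genes 0 were called by limma in either comparison against EV, with 0 and 3 at an unadjusted p under 0.05 in Gata2 KD and Pu.1 KD. Sqstm1, an autophagy receptor gene, was called between the knockdowns, where Gata2 KD lay below Pu.1 KD by 0.73 (adjusted p 0.0126). With slide as a block 2 autophagy genes were called higher in Pu.1 KD, and 3 sorting genes, 2 cathepsins and 2 of the other hydrolases were called lower there. In Gata2 KD it raised the calls of the TFEB list to 2 higher and 1 lower, and of the other membrane proteins and the V-ATPase subunits 2 and 1 were then called lower.

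**Figure D4:**
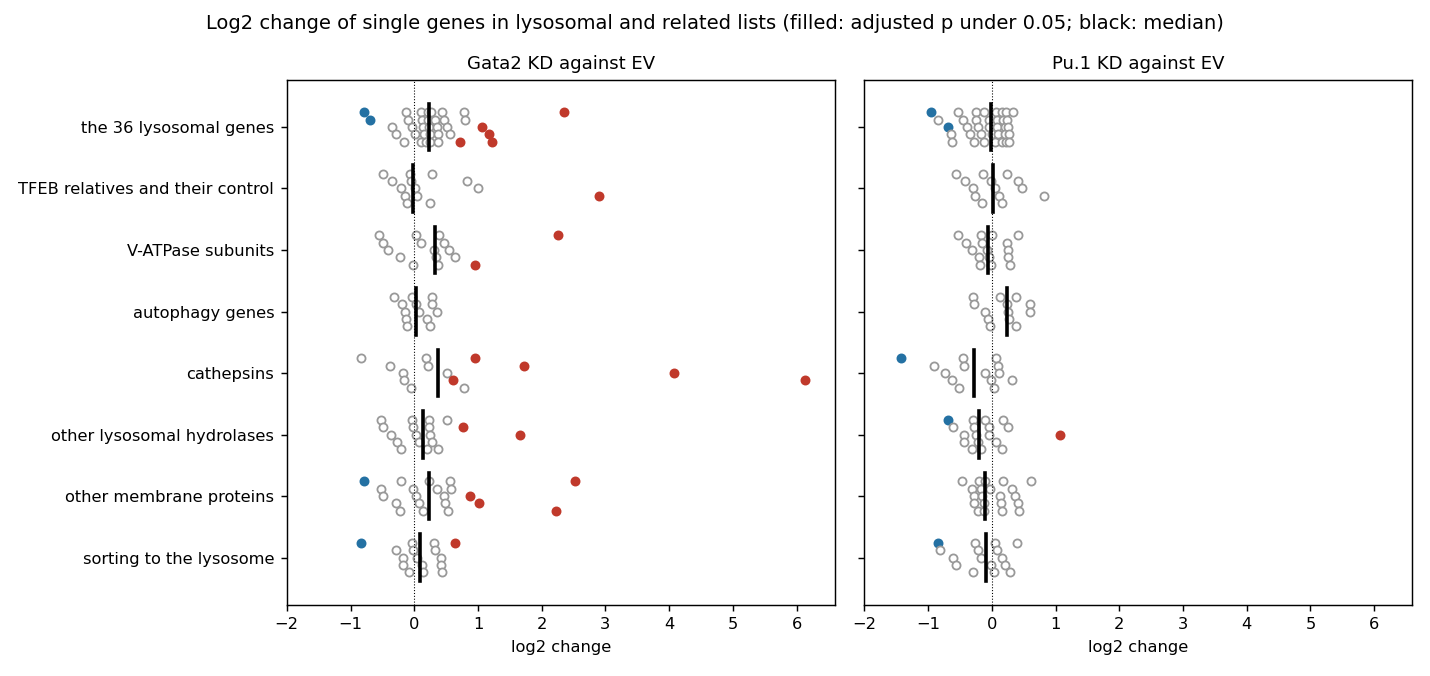
Points are single genes of the lysosomal group and of 7 related lists, plotted by log2 change in Gata2 KD (left) and Pu.1 KD (right) against EV, with filled points for an adjusted p under 0.05 and black bars for list medians. The cathepsins Ctss and Ctsh, Tfec, Slc11a1, Psap, Tcirg1 and Slc15a3 are the points above 2 in Gata2 KD, and no autophagy gene is filled.

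Markers of differentiated blood cells moved in the same comparisons. There 4.21% of all genes were called higher and 2.95% lower in Gata2 KD, and 1.45% and 2.16% in Pu.1 KD. All 11 neutrophil markers tested rose in Gata2 KD, and 8 of the 11 fell in Pu.1 KD. The sum of their levels, on the linear scale relative to the 75th percentile, ranged over the arrays from 241 to 270.01 in EV, from 1126 to 1341 in Gata2 KD and from 106 to 125 in Pu.1 KD. Of 10 monocyte and macrophage markers 8 rose in Gata2 KD and 2 fell in Pu.1 KD, with sums of 5.43 to 6.34, 37.01 to 41.2 and 3.36 to 4.09 in the 3 groups. Mrc1 was the single marker of these lists not well above background on any EV or Pu.1 KD array. It therefore passed the filter only through its Gata2 KD arrays, and its change in Gata2 KD is not independent of that filter. Of 8 mast cell and basophil markers 6 fell in Gata2 KD and 2 fell and 1 rose in Pu.1 KD, with sums of 125 to 143, 24.0 to 26.3 and 89.2 to 97.3. Of 7 erythroid markers 3 fell in Gata2 KD and 2 rose in Pu.1 KD, of 6 megakaryocyte markers 2 rose in each knockdown, and of the 7 progenitor markers 2 rose and 2 fell in Gata2 KD and 2 rose and 1 fell in Pu.1 KD. Their sums in EV, Gata2 KD and Pu.1 KD were 219 to 308, 127 to 193 and 241 to 286 for erythroid, 58.5 to 76.7, 62.9 to 93.9 and 146 to 171 for megakaryocyte, and 53.6 to 71.3, 62.1 to 75.5 and 50.2 to 60.8 for progenitor markers. A sum is weighted towards the brightest probes, here Hbb-bt in the erythroid list. Median levels in these lists did not overlap between groups. In EV, Gata2 KD and Pu.1 KD they were 0.504 to 0.646, -0.22 to 0.007 and 1.06 to 1.38 for erythroid markers. Those of megakaryocyte markers were 1.98 to 2.16, 2.27 to 2.34 and 2.56 to 2.81. Those of progenitor markers were -0.28 to -0.06, 0.37 to 0.64 and 1.13 to 1.32. A median level depends on which gene lies in the middle on an array, so it can differ from the change of single genes. Median changes in Gata2 KD and Pu.1 KD were -0.65 and 0.42 for erythroid and 0.37 and 0.63 for megakaryocyte markers. For progenitor markers they were -0.23 and 0.12, with 3 and 4 of the 7 means higher. The erythroid rises in Pu.1 KD were Epor (0.87) and Klf1 (0.84). The corresponding sums for the 36 lysosomal genes were 323 to 349, 372 to 412 and 304 to 351. Markers of several cell types changed in the same comparisons as lysosomal genes. In Pu.1 KD the lysosomal sums, which are weighted towards bright probes such as that of Cd63, overlapped those of EV. Median levels of the 36 lysosomal genes were 1.87 to 2.19, 2.05 to 2.12 and 1.58 to 1.77 in the 3 groups. Their median changes were 0.24 in Gata2 KD and -0.02 in Pu.1 KD. The part of such cell types in the lysosomal changes was not tested.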

How the data were processed

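The authors deposited, for each of the 9 arrays, spot intensity values from Agilent Feature Extraction 10.1.1.1, whose processed signal is background-subtracted and not normalized between arrays, and 1 table of log2 values. The deposited log2 values are given without their processing and were used as an alternative only. Groups and replicate numbers came from the sample titles. The main level was the log2 processed signal averaged over the spots of a probe, from which the array's 75th percentile was subtracted. Control spots were excluded, and outlier-flagged spots (47 to 96 per array) were set to missing. No spot was saturated. A probe was tested when well above background on at least 3 arrays and measured on at least 2 arrays of every group (36585 of 41174 probes). The number of arrays limits the precision.

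A single limma fit (version 3.58.1, R 4.3.3) covered all 9 arrays (two-sided, Benjamini-Hochberg over all tested probes, threshold 0.05). Accessions matched to RefSeq (GRCm38.p6) named 23374 probes, and a gene was read from its probe with the highest mean level. On simulated data for Gata2 KD against EV, 200 of 36585 probes were given a change. The fit recovered 31% of changes of 1 and 75% of changes of 2 on the log2 scale, with 5 false calls. In that setting a change of 1 could be missed. In the measured data a larger share, 7.15% of genes, was called in this comparison, so the setting differed. Recovery was not computed for the lysosomal genes alone, and these shares do not give it for them.

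Every gene was accounted for by its role, with the value on every array for called genes, and up to 3 called genes with the largest change were named from each related list in each comparison against EV. The genes, the related lists and the 6 marker lists were chosen with earlier results of these data known. The result of 1 gene of a related list is not reported here. Promoter letters were searched in RefSeq windows. The alternatives were blocks for slide and replicate number, normexp (run on the median signal, as a mean signal was not used here), quantile and median scaling, the filter on dim probes, flagged spots kept, eBayes trend and robust settings, the log2 table, fits of the compared groups alone, probes averaged per gene, a 2-fold minimum and each array left out.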

Additional observations from a re-analysis of the deposited data

How the results depend on the processing

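The counts of called lysosomal genes were 5 higher and 2 lower in Gata2 KD against EV, 0 and 2 in Pu.1 KD against EV, and 11 and 2 in Gata2 KD against Pu.1 KD. With 1 array left out they ranged from 3 to 5 and 0 to 1, from 0 to 0 and 0 to 2, and from 6 to 11 and 0 to 3. Genes lower in Gata2 KD than EV numbered 1 under quantile normalization, without the filter on dim probes and with probes averaged per gene, and 0 under scaling to the median, with only the groups compared and with the 2-fold minimum. Genes lower in Pu.1 KD numbered 5 with slide as a block, with probes well above background on all 9 arrays and under trend and robust settings, 6 under normexp, the deposited log2 values and probes averaged, 4 under quantile normalization, 1 under scaling to the median, and 0 with only the groups compared and with the 2-fold minimum. Genes higher in Gata2 KD than EV numbered 8 with the deposited values and 3 with only the groups compared. Between the knockdowns 7 were higher and 1 lower under scaling to the median, and 5 and 0 with the 2-fold minimum. The cause of these moves was not tested. In 0 of the changes of single genes and list medians did a called direction reverse. Across the 21 alternatives run for each gene, which do not include the 2-fold minimum, Psap, Lipa and Sgsh stayed called in Gata2 KD against EV and Psap, Neu1, Lipa, Man2b1, Sgsh and Gla between the knockdowns, while in Pu.1 KD both calls were lost under some. The median of the 36 genes in Pu.1 KD was -0.02, and 0.02 under scaling to the median, so it has no settled sign.

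The replicate numbers did not pair the arrays, as deviations of arrays with the same number correlated at -0.55 to 0.65. With the replicate block the counts were 3 higher and 0 lower in Gata2 KD against EV, 0 lower in Pu.1 KD against EV, and 7 higher and 0 lower between the knockdowns.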
